A study of Mus musculus with 10 samples.

Results

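The genes described here are 10 stimulus-induced transcription factors: the AP-1 subunits Fos, Fosb, Fosl1, Fosl2, Jun, Junb and Jund, the related factor Atf3, and the immediate early factors Egr1 and Nr4a1. They were taken by gene symbol from a table of 24202 genes, all 10 were present, and all 10 reached the mean of 10 normalized counts required of the 16767 genes tested. The set was selected on earlier results for these tumors, the PIIO-1 minus PBS differences in the same table, so those differences are given as a description and support nothing. The study compared 5 tumors of mice given PIIO-1, an antibody to GARP, with 5 tumors of mice given PBS. GARP is the cell-surface protein, encoded by LRRC32, that holds latent TGF-beta. PIIO-1 was injected into the peritoneum at 200 ug per mouse on days 6 and 9, and all tumors were taken on day 10. Mice of both groups were hLrrc32 knock-in animals, which carry the human gene, and received 100000 MB-49 cells, a mouse bladder cancer line, under the skin of the right flank. Whole tumors of both groups were made into single-cell suspensions before total RNA was isolated and sequenced in bulk. Nothing in the labels states that each tumor is from its own mouse. The p-values therefore hold for these samples only, and the spread they rest on may be technical.

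AP-1 is a pair of basic leucine zipper proteins that bind DNA together. Jun proteins can pair with each other or with a Fos protein, whereas Fos proteins need a Jun partner. Fos, Fosb, Jun, Junb, Atf3, Egr1 and Nr4a1 are immediate early genes: MAP kinase and calcium or cAMP signals switch them on within minutes, without new protein synthesis, and the messages are short-lived. Immediate early genes are known to respond to growth factors, cell stress and the handling of tissue, and AP-1 is active in carcinoma cells, fibroblasts and many leukocytes.

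In the GENCODE annotation of GRCm38 the longest transcripts of Fos, Fosb, Fosl1, Fosl2 and Atf3 have 4 exons each, whereas those of Jun, Junb and Jund have 1. Genes on the opposite strand overlap Fosl1 (Ccdc85b), Jun (Junos), Junb (Prdx2), Jund (Gm11175) and Atf3 (Gm24748). These overlaps are of whole gene spans, introns included, and shared exons were not examined. The strand setting of the counting is not given in the sources used here. Whether reads of those neighbours entered the counts therefore cannot be told. RefSeq promoter windows, running from 250 bases before to 50 after a RefSeq start (build GRCm38.p6), were at hand for 8 of the 10 genes. The letters TGACG, the core of the cAMP response element that CREB and ATF proteins bind, were found on either strand in 5 of these 8 windows (Fos, Fosb, Junb, Atf3 and Nr4a1), against 21% of 27018 such windows of all genes. Fos held 2 matches and Nr4a1 held 4. The full element TGACGTCA (1.88% of all windows, each of which also holds TGACG on both strands), the AP-1 site TGACTCA (5.17%) and the CArG box of serum response factor (1.57%) had no match in the 8 windows, on either strand. Fosl1 and Egr1 had no window, and bases more than 250 before the start were not searched for any gene. The EGR site GCGNGGGCG (5.56% of all windows) matched in Fosb, Fosl2 and Nr4a1. A match is a stretch of letters and not a measured binding site. The windows of 4 genes that carry the TGACG core are shown because they include the highest-differing AP-1 subunits, the highest-differing ATF member and the gene with the most matches; they are written 5′ to 3′ on the gene's strand, and capitals mark TGACG or its reverse complement. They lie at chr12:85473640-85473939 (Fos, plus strand), chr7:19309996-19310295 (Fosb, minus strand), chr1:191183284-191183583 (Atf3, minus strand) and chr15:101266596-101266895 (Nr4a1, plus strand). The RefSeq start used for Atf3 lies 34706 bases, and that for Nr4a1 12577 bases, downstream of the outermost GENCODE start of the gene. For Jund and Fosl2, whose windows held no TGACG, the RefSeq start lies 1210 and 671 bases from that GENCODE start.
Fos: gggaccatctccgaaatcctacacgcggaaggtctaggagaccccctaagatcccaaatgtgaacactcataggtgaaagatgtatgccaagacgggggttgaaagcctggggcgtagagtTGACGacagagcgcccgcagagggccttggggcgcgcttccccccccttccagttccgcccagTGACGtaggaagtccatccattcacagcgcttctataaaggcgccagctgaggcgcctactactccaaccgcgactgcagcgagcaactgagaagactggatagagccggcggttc
Fosb: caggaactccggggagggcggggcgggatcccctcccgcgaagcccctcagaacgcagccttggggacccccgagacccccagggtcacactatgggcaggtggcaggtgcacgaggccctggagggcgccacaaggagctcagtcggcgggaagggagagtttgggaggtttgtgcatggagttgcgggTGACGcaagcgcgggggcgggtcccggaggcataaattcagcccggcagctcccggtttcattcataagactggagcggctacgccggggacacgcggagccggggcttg
Atf3: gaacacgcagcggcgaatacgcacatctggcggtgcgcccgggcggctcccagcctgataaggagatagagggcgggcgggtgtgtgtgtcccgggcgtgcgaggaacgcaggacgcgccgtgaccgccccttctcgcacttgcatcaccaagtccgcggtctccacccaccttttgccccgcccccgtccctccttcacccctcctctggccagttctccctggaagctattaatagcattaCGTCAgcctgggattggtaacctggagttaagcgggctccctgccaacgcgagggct
Nr4a1: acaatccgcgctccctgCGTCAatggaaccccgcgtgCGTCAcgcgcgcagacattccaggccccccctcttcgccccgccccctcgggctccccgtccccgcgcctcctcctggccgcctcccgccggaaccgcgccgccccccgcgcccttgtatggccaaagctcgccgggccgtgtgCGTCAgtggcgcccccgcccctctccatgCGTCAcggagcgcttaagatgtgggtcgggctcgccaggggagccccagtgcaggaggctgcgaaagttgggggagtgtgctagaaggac

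The libraries held between 29689555 and 35299028 whole reads in PIIO-1 tumors and between 18843192 and 37581521 in PBS tumors. At that depth 3 reads are worth between 2.45 and 4.68 normalized counts, so counting error is small beside the values of all 10 genes, whose lowest was 2078. Of the epithelial markers, the keratin genes Krt8 (a mean of 59166 normalized counts in PIIO-1 and 56281 in PBS tumors) and Krt18 (33496 and 31214) stood high. The others were lower, such as Krt14 (1079 in PIIO-1 and 823 in PBS tumors), Krt5 (66.9 and 68.0) and Epcam (17.7 and 24.0). PIIO-1 tumor 5 stood apart: mitochondrial reads made up 3.12% of its library, whereas the other PIIO-1 tumors had 1.29% to 1.71% and PBS tumors 0.986% to 2.22%. Globin reads made up 0.180%, whereas the other PIIO-1 tumors had 0.0272% to 0.0745% and PBS tumors 0.0183% to 0.0410%. Because the RNA is from bulk tumor, fewer cells of a type and less RNA per cell cannot be told apart.

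Below, a level is a normalized count, and a difference is the PIIO-1 mean minus the PBS mean of log2(normalized count + 1), given with limma's standard error (SE). Fos (chromosome 12, 85473890 to 85477273, plus strand), the prototype inducible AP-1 subunit, had 19393, 22823, 25975, 21988 and 29563 normalized counts in PIIO-1 tumors 1 to 5, against 15014, 15009, 14596, 16650 and 21848 in PBS tumors 1 to 5. PIIO-1 tumors 2 to 5 lay above every PBS tumor, PIIO-1 tumor 1 lay above all PBS tumors but PBS tumor 5, and the groups overlapped through that PBS tumor. The means were 23949 ± 3921 and 16623 ± 3025 (SD, n = 5 each), a difference of 0.53 (SE 0.13). Fosb (chromosome 7, 19302696 to 19310051, minus strand), a Fos relative that likewise pairs with Jun proteins, had the same tumors at the top of each group. It had 15244, 17609, 20754, 16185 and 26814 normalized counts in PIIO-1 tumors, against 7358, 10095, 8218, 11889 and 16158 in PBS tumors. Its means of 19321 ± 4679 and 10744 ± 3496 gave the largest difference of the 10 genes, 0.87 (SE 0.21), and its highest value of all tumors was 3.64 times its lowest.

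Fosl2 (chromosome 5, 32135801 to 32157842, plus strand) encodes Fra-2, a Fos protein without a strong activation domain that accumulates later than Fos after a stimulus. Fosl2 had 10077, 10959, 12414, 16470 and 17985 normalized counts in PIIO-1 tumors, against 10904, 9369, 9970, 10580 and 11505 in PBS tumors. PIIO-1 tumors 4 and 5 stood well above the rest, and PIIO-1 tumors 1 and 2 lay inside the PBS range. The difference was 0.34 (SE 0.15). Fosl1 (chromosome 19, 5447547 to 5455946, plus strand) encodes Fra-1, the Fos protein most often linked to invasive carcinoma cells. It had 4874, 3867, 5020, 3736 and 4299 normalized counts in PIIO-1 tumors, against 3926, 4387, 3665, 3385 and 4017 in PBS tumors. The groups were interleaved, PIIO-1 tumors 1 and 3 were the highest, and the difference of 0.16 (SE 0.094) was the smallest of the 10.

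**Figure D1:**
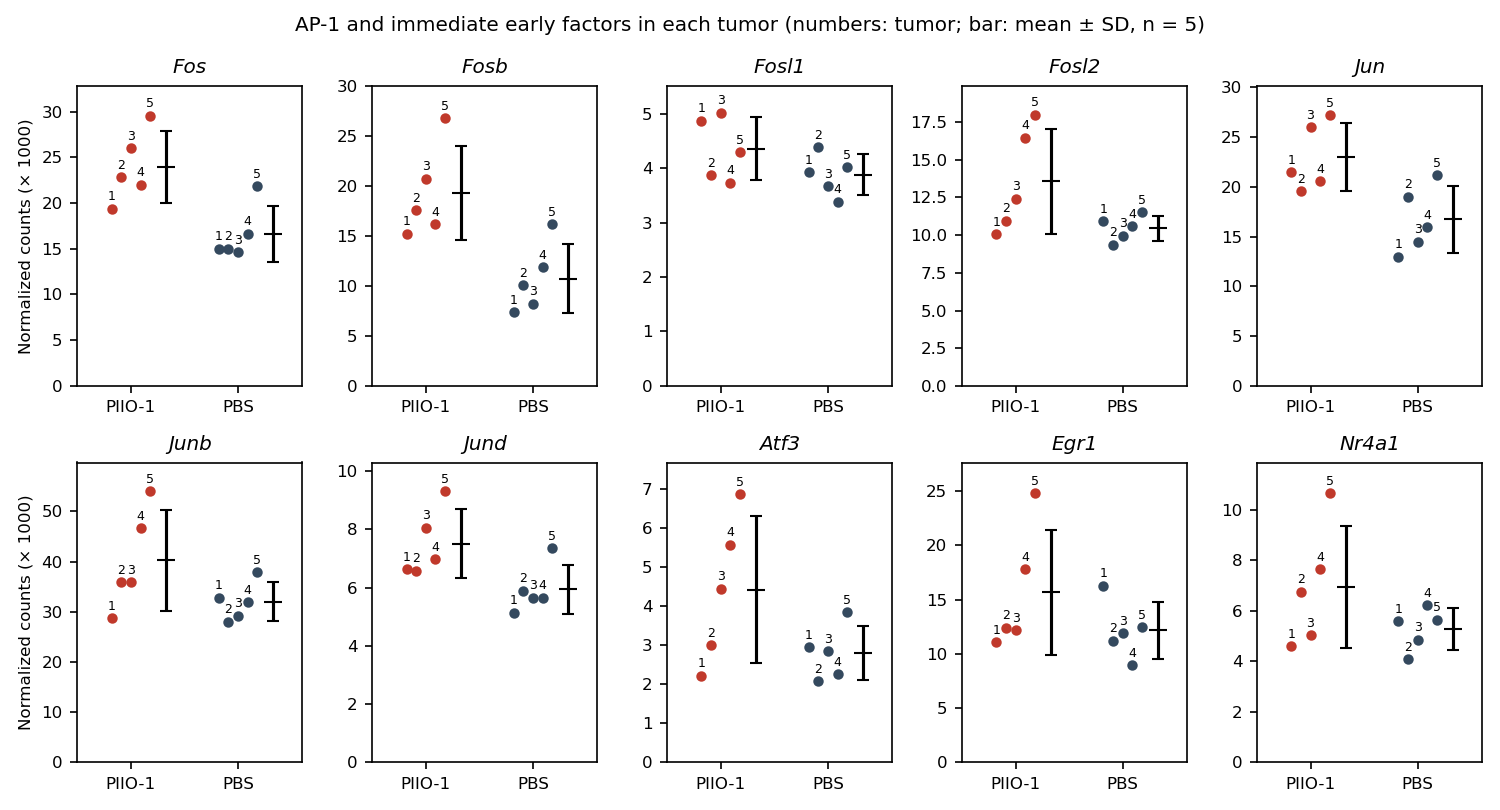
Normalized counts (in units of 1000, axes from 0) of the 10 genes in each tumor, with PIIO-1 left of PBS; points are tumors marked with their number, and the bar beside them is the mean ± SD of 5 tumors. PIIO-1 tumor 5 is the highest of all tumors for every gene but Fosl1, and PBS tumor 5 alone of the PBS tumors reaches into the PIIO-1 range for Fos, Fosb, Jun and Jund.

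Among the Jun genes, Jun (chromosome 4, 95049034 to 95052222, minus strand), the strongest activator of the family, had 21507, 19585, 26000, 20567 and 27202 normalized counts in PIIO-1 tumors, against 12977, 19027, 14503, 15955 and 21185 in PBS tumors. Again PBS tumor 5 alone of the PBS tumors reached the PIIO-1 range, and the difference was 0.47 (SE 0.14). Jund (chromosome 8, 70698949 to 70700616, plus strand), the Jun protein that resting cells express most steadily, had 6635, 6590, 8068, 6973 and 9327 in PIIO-1 tumors, against 5143, 5898, 5660, 5653 and 7366 normalized counts in PBS tumors. PIIO-1 tumors 1, 2 and 4 lay below PBS tumor 5 and above the other 4 PBS tumors, and the difference was 0.34 (SE 0.11). Junb (chromosome 8, 84974484 to 84978718, minus strand), a weaker activator that can restrain Jun, followed another order. It had 28744, 35913, 35885, 46631 and 54001 normalized counts in PIIO-1 tumors, against 32777, 28018, 29230, 31944 and 37944 in PBS tumors. PIIO-1 tumors 4 and 5 were the highest and PIIO-1 tumor 1 the lowest but for PBS tumor 2, with a difference of 0.30 (SE 0.15) that was 0.19 without PIIO-1 tumor 5.

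Atf3 (chromosome 1, 191170296 to 191218039, minus strand), a stress-induced ATF protein that pairs with Jun proteins and often represses, had 2221, 3003, 4455, 5588 and 6882 normalized counts in PIIO-1 tumors, against 2957, 2078, 2861, 2255 and 3855 in PBS tumors. PIIO-1 tumors 3, 4 and 5 lay above every PBS tumor, while PIIO-1 tumor 1 lay below all PBS tumors but PBS tumor 2. The difference was 0.58 (SE 0.28).

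Egr1, a zinc finger factor induced through serum response factor, had 11088, 12424, 12182, 17791 and 24789 normalized counts in PIIO-1 tumors, against 16276, 11220, 11933, 8980 and 12439 in PBS tumors. Only PIIO-1 tumors 4 and 5 lay above the highest PBS tumor, which was PBS tumor 1. The difference was 0.32 (SE 0.22). Dropping PIIO-1 tumor 5, which had the highest Egr1 level of all, lowered it to 0.14. It fell to 0.035 when PBS tumor 4, which had the lowest level, was dropped as well. Removing the highest treated and the lowest control value had to shrink the difference, so these drops cannot tell what its size rests on. Dropping PBS tumor 1 instead, the highest of its group, raised the difference to 0.43. Nr4a1 (chromosome 15, 101254269 to 101274795, plus strand) encodes Nur77, an orphan nuclear receptor that T cell receptor signals and other stimuli induce. It had 4594, 6757, 5045, 7642 and 10667 normalized counts in PIIO-1 tumors, against 5603, 4077, 4859, 6232 and 5657 in PBS tumors. PIIO-1 tumors 2, 4 and 5 were the highest of all, PIIO-1 tumors 1 and 3 lay inside the PBS range, and the difference of 0.34 (SE 0.20) was 0.17 without PIIO-1 tumor 5.

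All 10 genes had a positive difference, with a median of 0.34, where 51.1% of all genes tested were positive and their median was 0.0027. limma with Benjamini-Hochberg adjustment over all genes called 0 of the 10 (and 0% of the 16767), as did edgeR (0%) and DESeq2 (0 of the 10, against 0.0179% of all genes). At an unadjusted p under 0.05, limma counted 944 of the 16767 genes (5.63%), 5 of the 10 among them. The groups overlapped for all 10 genes, where 0.394% of all genes were higher in PIIO-1 tumors with no overlap. Without PBS tumor 5, Fos, Fosb, Jun and Jund did not overlap (1.01% of all genes in that setting), and without PIIO-1 tumor 1, Fos and Fosb did not (1.13%). These counts come from the contrast on which the genes were brought together, so nothing is read from them.

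**Figure D2:**
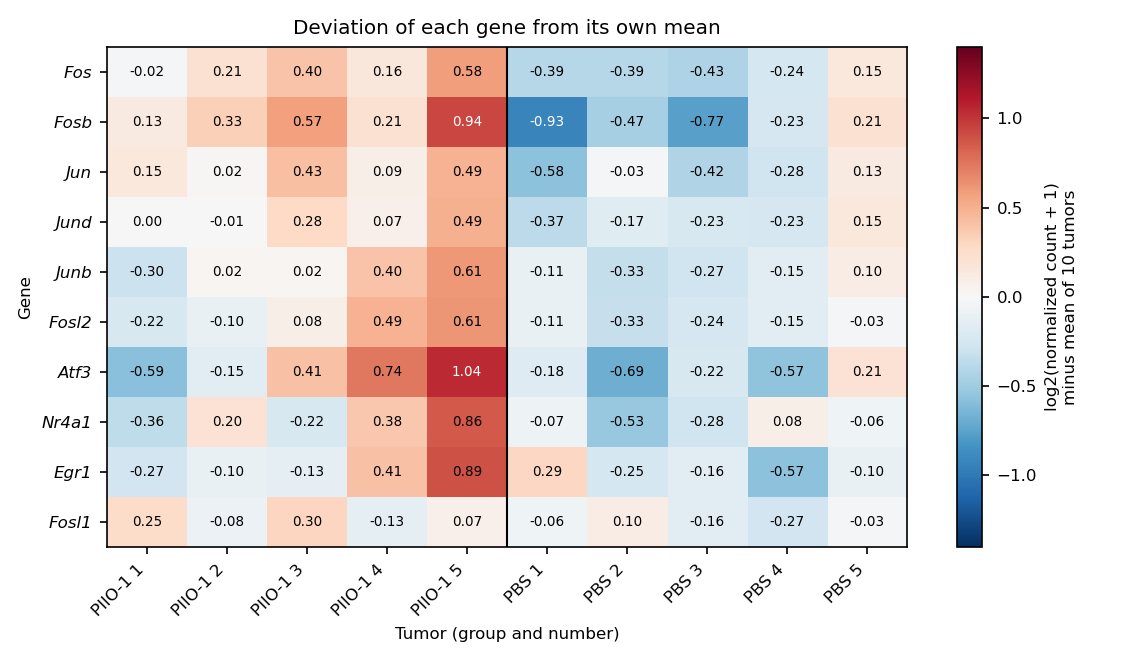
Deviation of each gene (rows) in each tumor (columns, PIIO-1 left of the line and PBS right) from its own mean over the 10 tumors, on the log2(normalized count + 1) scale. PBS tumor 5 is positive for Fos, Fosb, Jun and Jund, and also for Junb and Atf3. Junb, Fosl2, Atf3, Nr4a1 and Egr1 are highest in PIIO-1 tumors 4 and 5 and negative in PIIO-1 tumor 1.

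The 10 genes varied widely between tumors of the same treatment. The pooled SD within groups, on the log2 scale, ran from 0.17 for Fosl1 to 0.53 for Atf3, against a median of 0.097 over 6672 genes whose mean reached 1000 normalized counts. Among those 6672 genes the 10 stood between the percentile 81.4 (Fosl1) and the percentile 99.2 (Atf3) of this spread. PIIO-1 tumor 5 had the highest value of 9 of the 10 genes, and PIIO-1 tumor 3 that of Fosl1. The lowest value of each gene was in PBS tumor 1, 2, 3 or 4. In PBS tumor 3 all 10 genes lay below their own mean, whereas in PBS tumor 5 they did so for 4 and lay above it for 6.

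Whether the genes varied together between tumors of 1 group was asked after each group's mean had been removed from the log2 values, which takes the PIIO-1 against PBS difference out. The level of Fos was set against that of the other 9 genes over the 10 tumors, with exact two-sided permutation within groups (14400 pairings) and adjustment over the 9 relations. Fosb varied with Fos (Pearson r = 0.93, permutation p = 0.000347, adjusted p = 0.00313; Spearman rho = 0.84, permutation p = 0.00535, adjusted p = 0.0481). Jund passed by Pearson r (0.91, permutation p = 0.00486, adjusted p = 0.0219) and not by Spearman rho (0.59, permutation p = 0.0988, adjusted p = 0.143). The other 7 did not pass. By Pearson r they ran from 0.74 for Jun (permutation p = 0.0198, adjusted p = 0.0517), 0.72 for Junb (permutation p = 0.0230, adjusted p = 0.0517) and 0.71 for Atf3 (permutation p = 0.0315, adjusted p = 0.0567) to 0.36 for Egr1 (permutation p = 0.347, adjusted p = 0.391) and 0.040 for Fosl1 (permutation p = 0.913, adjusted p = 0.913). Their Spearman rho ran from 0.70 for Atf3 (permutation p = 0.0345, adjusted p = 0.143) to -0.042 for Fosl1 (permutation p = 0.922, adjusted p = 0.922). PIIO-1 tumor 5 and PBS tumor 5 lie farthest from the median of Fos. When they were left out, r was lower, at 0.76 for Fosb (exact permutation, adjusted p = 0.109) and 0.64 for Jund (adjusted p = 0.770), and 0 of 9 passed. Leaving out the tumors farthest from the median narrows the range of Fos, which tends to lower r, and fewer tumors leave fewer pairings. The loss of passing therefore cannot be ascribed to those tumors alone. Without PIIO-1 tumor 5 and PBS tumor 4, 0 of 9 passed as well, with r of 0.92 for Fosb and 0.89 for Jund.

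Over all 45 pairs, 40 correlations were positive and 11 were at least 0.8, with n = 10 tumors that share library and scaling with every gene. Read from these values, and so with no test, the genes other than Fosl1 were put into a pair of sets. The sets are not sharply apart, because the highest correlations between them exceed the lowest within the second. Within Fos, Fosb, Jun and Jund the 6 correlations ran from 0.74 to 0.93. Within Junb, Fosl2, Atf3, Nr4a1 and Egr1 the 10 correlations ran from 0.70 to 0.96, the highest being Fosl2 with Junb. Between the sets the 20 correlations ran from 0.062 to 0.72, and Fosl1 ran from -0.63 with Nr4a1 to 0.48 with Jun. Without PIIO-1 tumor 5, a choice made after the data were seen, the ranges were 0.68 to 0.90, 0.39 to 0.93 and -0.37 to 0.59 in the same order. As the mean deviation from each gene's own mean over the 10 tumors (log2 scale), the first set stood at 0.063 and the second at -0.35 in PIIO-1 tumor 1. In PBS tumor 1 the order was the other way round, with the first set at -0.57 and the second at -0.036. In PBS tumor 5 they stood at 0.16 and 0.023.

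**Figure D3:**
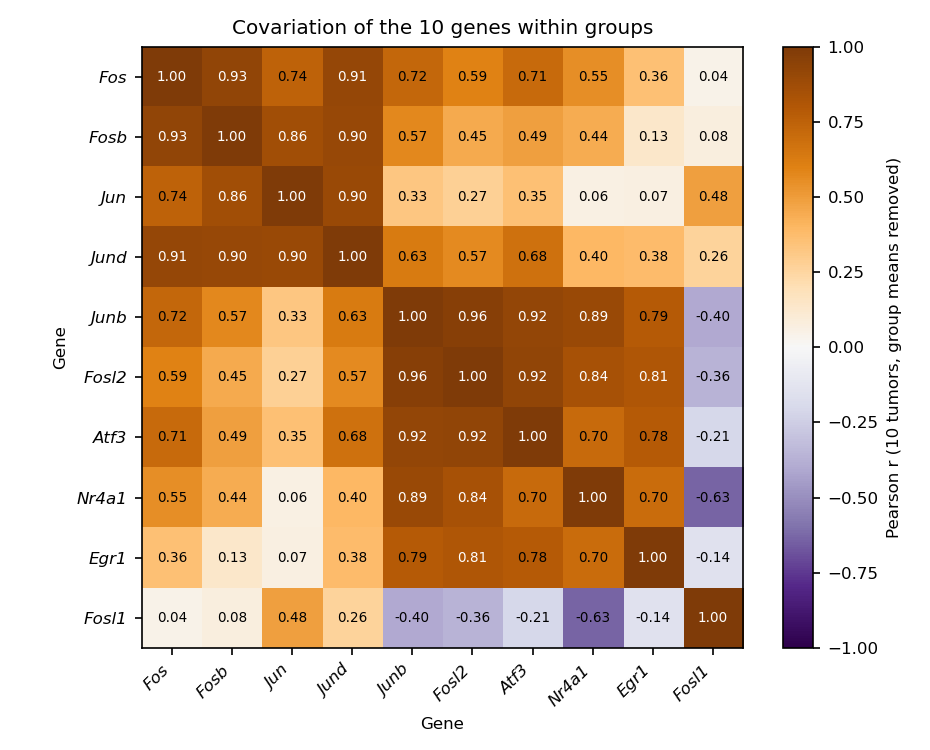
Pearson r between the log2(normalized count + 1) values of each pair of genes over the 10 tumors, after removal of the group means; both axes list the genes. Fos, Fosb, Jun and Jund form a square with r between 0.74 and 0.93, Junb, Fosl2, Atf3, Nr4a1 and Egr1 form another with r between 0.70 and 0.96, and Fosl1 is negative with all 5 genes of that second square.

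Levels of different genes can be compared only per length, so normalized counts were divided by the exon length of each gene in kilobases. Junb was the most abundant of the 10, with 17486 ± 4346 normalized counts per kilobase in PIIO-1 and 13899 ± 1676 in PBS tumors (SD, n = 5 each). Fos had 10182 ± 1667 per kilobase in PIIO-1 and 7068 ± 1286 in PBS tumors, and Jun had 7204 ± 1069 and 5246 ± 1049. The order was Junb, Fos, Jun, Jund, Egr1, Fosb, Fosl1, Nr4a1, Atf3 and Fosl2. With the length of the longest transcript in place of all exons, 3 neighbouring pairs changed places: Fosb (7.01% of the 10 genes' sum) stood above Egr1 (5.61%), Nr4a1 (4.32%) above Fosl1 (4.15%), and Fosl2 (3.34%) above Atf3 (3.19%). Junb lay above Fos, Fos above Jun and Jun above Jund in 10 of 10 tumors. The step between Fos and Jun was within the combined spread (the SDs of both genes over 10 tumors, added in quadrature), as were all steps from Jund down to Fosl2. As a share of the sum over the 10 genes, Junb held 32.5% ± 3.03 in PIIO-1 and 34.8% ± 1.69 in PBS tumors, and Fos 19.2% ± 1.68 and 17.6% ± 1.03. Fosb held 5.77% ± 0.624 in PIIO-1 and 4.24% ± 0.919 in PBS tumors. The Fos genes together stood at 0.581 ± 0.0530 of the Jun genes per kilobase in PIIO-1 and 0.517 ± 0.0201 in PBS tumors. That ratio was highest in PIIO-1 tumors 3 (0.634), 1 (0.609) and 2 (0.605), and PIIO-1 tumor 4 (0.501) lay among the PBS tumors (0.496 to 0.546).

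**Figure D4:**
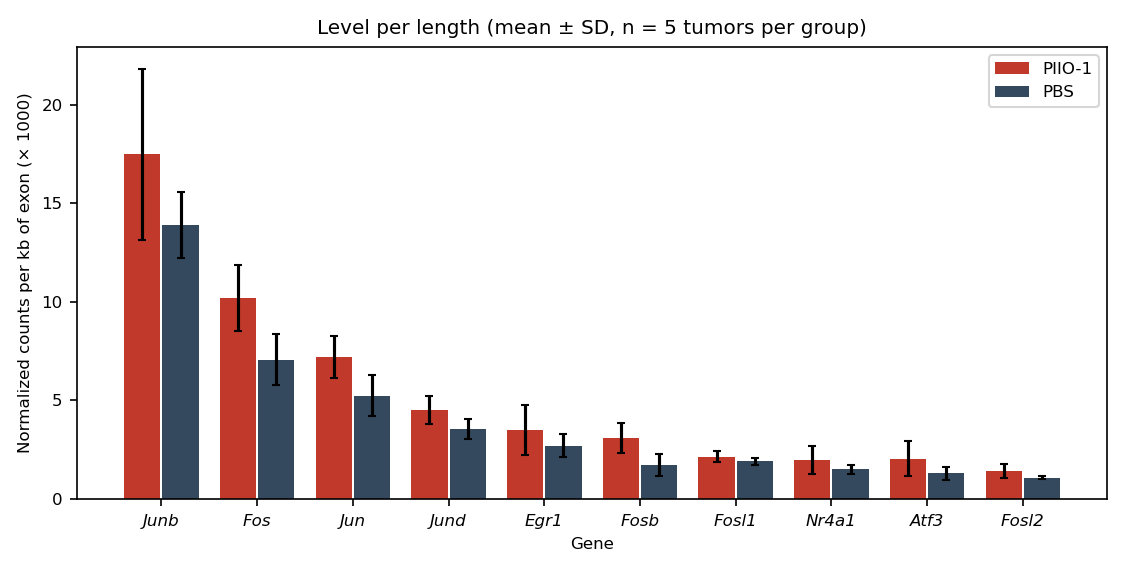
Normalized counts per kilobase of exon (in units of 1000, axis from 0) of the 10 genes in order of level, PIIO-1 bars left of PBS bars, mean with SD of 5 tumors. Junb is the most abundant at 17486 in PIIO-1 and 13899 in PBS tumors, and the 6 genes from Egr1 to Fosl2 lie within each other's spread from step to step.

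Other genes of the pathway were read from lists chosen with earlier results known, and limma called 0 of their 117 genes over all genes (18 had an unadjusted p under 0.05, a mark that 5.63% of all genes tested reached). All 25 other immediate early genes were positive, with a median difference of 0.29, where the median of all genes tested was 0.0027. Klf6, a zinc finger factor, had 19654 ± 2478 normalized counts in PIIO-1 and 15524 ± 1578 in PBS tumors (difference 0.34, SE 0.094). Sik1, a salt-inducible kinase that CREB signals induce, differed by 0.37 (SE 0.11), and Rhob, an early-response small GTPase, by 0.41 (SE 0.13). The largest difference of this list was that of Ier3 (0.55, SE 0.18) and the smallest that of Myc (0.031, SE 0.090). Among the 18 feedback brakes, which switch off MAP kinases, degrade early messages or bind EGR proteins, 16 were positive with a median of 0.16. Nab2, which binds and restrains Egr1, had 1094 ± 35.1 normalized counts in PIIO-1 and 889 ± 140 in PBS tumors (difference 0.31, SE 0.095). Spry2, an inhibitor of receptor tyrosine kinase signalling, differed by 0.24 (SE 0.069), and Zfp36l2, which destabilizes AU-rich messages, by 0.16 (SE 0.072).

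The lists of partners and upstream kinases lay nearer to 0. Of 19 other basic leucine zipper genes 16 were positive, with a median of 0.093. Atf4, the factor of the integrated stress response, differed by 0.17 (SE 0.075), Nfe2l2, which encodes the oxidative stress factor NRF2, by 0.17 (SE 0.084), and Creb1 by 0.071 (SE 0.040). Of 23 kinases and factors upstream 18 were positive, with a median of 0.058. Map3k1 differed by 0.27 (SE 0.092), Map2k1, which encodes MEK1, by 0.16 (SE 0.075), and Mapk9, which encodes the Jun kinase JNK2, by -0.079 (SE 0.038). Of 20 genes known as AP-1 targets 15 were positive, with a median of 0.11. The EGF receptor ligand genes Areg and Hbegf differed by 0.59 (SE 0.26) and 0.30 (SE 0.13). The 5 negative genes of this list ran from -0.15 for Gem (SE 0.19) to -0.060 for Mmp10 (SE 0.42).

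**Figure D5:**
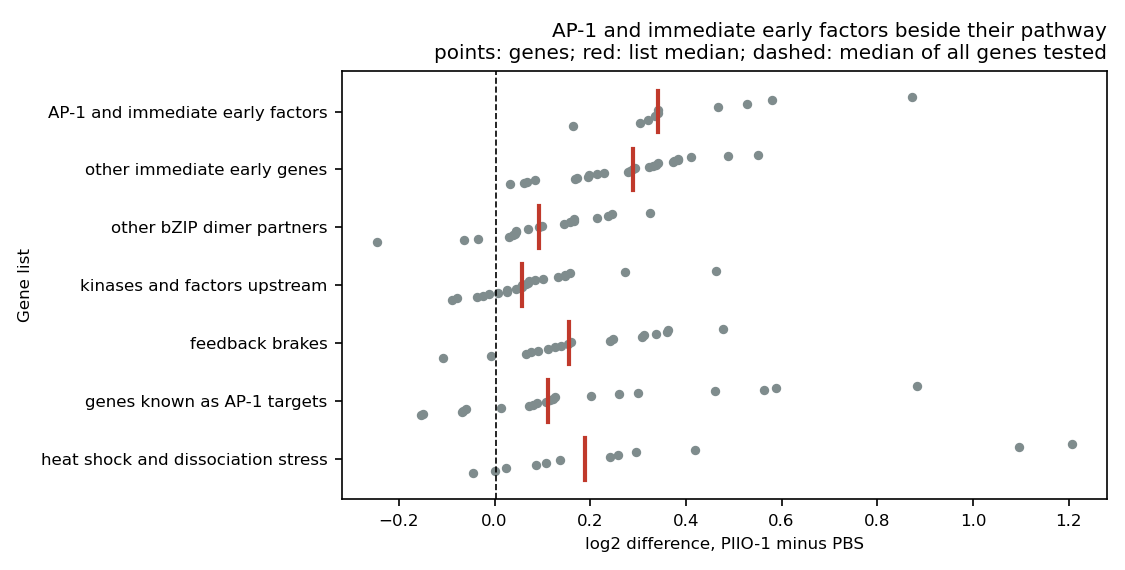
Difference between PIIO-1 and PBS tumors (log2, PIIO-1 minus PBS) of each gene of 7 lists; points are genes, the red line is the list's median and the dashed line the median of all genes tested (0.0027). The medians are 0.34 for the AP-1 and immediate early factors, 0.29 for the other immediate early genes, and between 0.058 and 0.19 for the other 5 lists.

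Of 12 listed genes of heat shock and tissue handling 11 were positive, with a median of 0.19; the exception was Hspa8, a constitutive HSP70 gene (-0.045, SE 0.059). Hspa1b, an inducible HSP70 gene, had 2078, 1244, 3709, 2109 and 6576 normalized counts in PIIO-1 tumors, against 766, 1335, 1103, 760 and 2354 in PBS tumors. Its highest values were in PIIO-1 tumors 5 and 3, followed by PBS tumor 5, which are also the highest tumors of their groups for Fos, Fosb, Jun and Jund. Hspa1a, whose near-identical sequence makes both values uncertain, differed by 1.10 (SE 0.46), Hspa1b by 1.21 (SE 0.43) and the co-chaperone gene Dnajb1 by 0.42 (SE 0.17). Most of the sum over the 12 genes came from Hsp90ab1 and Hspa8, so Hspa1b weighs little in it. Hsp90ab1 had a mean of 82854 normalized counts in PIIO-1 and 82721 in PBS tumors, and Hspa8 had 52426 and 54039. The sum was 211884 in PIIO-1 tumor 4, the lowest of all tumors, and 252082 in PIIO-1 tumor 5, the highest. The 218490 of PBS tumor 5 lay inside the range of the other PBS tumors (217927 to 227393). The labels give no handling time, and the part of tissue handling in the values of the 10 genes was not tested.

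The genes whose log2 values, with group means removed, were most like a member's were sought among 11835 others whose mean reached 50 normalized counts, as a description over 10 tumors. Among the nearest to Fos were Kidins220 (r = 0.93), Wbp11 (0.91), Usp28 (0.91), Oser1 (0.89), Arhgap17 (0.89), Trappc1 (0.88) and Dlgap4 (0.88). Their own differences between the groups were small, from -0.017 for Wbp11 to 0.16 for Oser1. Nearest to Atf3 were Neu1 (r = 0.99), Rgcc (0.99) and Litaf (0.98), and nearest to Jund were Hspa1b (0.95), Edc4 (0.94) and Trib1 (0.93).

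Summed markers of several other cell types were highest in PIIO-1 tumor 5, where 9 of the 10 genes were highest too. The summed level of 6 red blood cell genes ran from 8458 to 58768 normalized counts in PIIO-1 and from 5563 to 12904 in PBS tumors. That of 7 neutrophil genes ran from 23516 to 44771 in PIIO-1 and from 19299 to 33588 in PBS tumors, that of 6 platelet genes from 2761 to 5190 and from 1763 to 3329, and that of 5 mast cell genes from 486 to 1631 and from 413 to 625. PIIO-1 tumor 5 held the highest of each of these sums, and 0 genes of these lists were at 0 in all tumors. Each of these sums overlapped between the groups. So did the sums of 6 T cell genes (1355 to 3780 in PIIO-1 and 1709 to 3615 in PBS tumors), 6 macrophage genes (27021 to 49758 and 33351 to 54202), 6 endothelial genes (4129 to 5510 and 3870 to 5286) and 6 fibroblast genes (1725 to 5672 and 2120 to 5209). Epithelial genes, 8 in number, summed to between 82252 and 103140 in PIIO-1 and between 81892 and 98961 in PBS tumors. The T cell and epithelial sums were likewise highest of all tumors in PIIO-1 tumor 5. The part of these cells in the values of the 10 genes was not tested.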

How the data were processed

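RNA of 10 tumors was analysed. The authors deposited normalized counts (unit signal, with no value below 0), which the table's name ascribes to DESeq2; the submitters' processing notes list HISAT2, featureCounts, DESeq2 and GRCm38, and for tool versions, annotation and strand setting the value is not given in the sources used here. Treatment labels set the group, and the titles, which call the antibody a4D3, gave replicate numbers. Each column is a whole multiple of 1 step (100% of values within 0.001 read), from which whole reads were recovered; every pair of libraries differed by more than sampling noise (chi-square per gene of at least 9.76). Differences were tested with limma 3.58.1 (R 4.3.3), trend fitted, on log2(value + 1), a scale on which low genes appear to change less; 16767 genes whose mean reached 10 entered, two-sided, with Benjamini-Hochberg adjustment at 0.05. On data simulated for PIIO-1 against PBS with 16767 independent genes, this step recovered 62% of genes changed 1.5-fold and 92% of those changed 2-fold. The 200 changed genes, changed 1.5- to 4-fold, were drawn at any spread from those whose mean reached 50 normalized counts. The rates hold for that setting and not for the 10 genes, which spread more widely than most genes. Alternatives were other pseudocounts, filters, scalings and weights, a replicate block, edgeR 4.0.16 and DESeq2 1.42.0 on the recovered reads, and tumors left out. Genes named were the 10 factors, the 3 genes of each list with the smallest p, and those most like Fos, Atf3 and Jund. Others (such as Ier3, Myc, Gem and Mmp10) were named after their values were seen. Some genes that these criteria pick are not reported here. The members and lists were chosen with earlier results of these data known. Cpa3 of the mast cell list was not analysed here. Promoters are from RefSeq; where a symbol had several windows the first was used.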

Additional observations from a re-analysis of the deposited data

Results flagged for a closer look

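Fos in PBS tumor 5, at 21848 normalized counts, stood far from the other PBS tumors, which lay between 14596 and 16650; the gap to the nearest of them was 0.717 of the group's range. Of 20 groups of 5 tumors examined for the 10 genes this was the 1 so marked, and chance marks about 5% of groups.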

How the results depend on the processing

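All 10 genes kept a positive difference in each of the 22 alternatives run, and 0 of the 10 passed in any. limma called 0 genes under every alternative of its own, the replicate block included, and edgeR called 0, while DESeq2 called 3. Over all genes tested, same-numbered tumors correlated between -0.21 and 0.095, and the labels do not say that a number marks a pair. With the block the SE was smaller for every member but Egr1 (0.23, against 0.22 without the block). It was 0.080 for Fos (0.13 without), 0.12 for Fosb (0.21 without) and 0.059 for Jund (0.11 without). Leaving out PIIO-1 tumor 5 gave the lowest leave-one-out difference of every gene but Fosl1 (PIIO-1 tumor 3) and Jun (PBS tumor 1), among them Fos (0.45, up to 0.63 without PBS tumor 5), Fosb (0.75, up to 1.03 without PBS tumor 5), Fosl2 (0.23, up to 0.44), Junb (0.19, up to 0.42) and Atf3 (0.39, up to 0.80), the last 3 upper values being without PIIO-1 tumor 1. With lengths of the longest transcript in place of all exons, Junb held 36.3% and Fosb 7.01% of the 10 genes' sum, against 33.6% and 5.01%, and the order of 3 neighbouring pairs turned. Of the 9 relations with Fos, 2 passed with group means removed and 7 with group means kept. With group means kept, r takes in the group difference on which the genes were brought together, so nothing is read from the 7. Without PIIO-1 tumor 5 and PBS tumor 5, 0 passed, and fewer tumors leave fewer pairings. Without PIIO-1 tumor 5 and PBS tumor 4, 0 passed as well, with r of 0.92 for Fosb and 0.89 for Jund.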
